A study of Mus musculus with 6 samples.

Results

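Txnip and 9 genes of oxidant and metal defence (Mt1, Mt2, Gpx1, Gpx3, Cat, Sod1, Sod2, Nqo1 and Hmox1) were followed in RNA from isolated mouse pancreatic islets. They were chosen by name for what they encode, with earlier results of these data known. They are 10 rows of the 53670 in the raw count table, and all 10 had enough reads to be tested among 15915 genes. The pathway lists below were also chosen with those results known, so shares set beside those of all genes are a description only. The libraries came from mice 6 weeks of age, 3 of genotype Paupar +/+ (WT) and 3 of genotype Paupar -/- (KO), where Paupar is a long noncoding RNA gene next to Pax6. Islets were collected by collagenase digestion, and the labels give no treatment, no sex and no strain for either genotype. The labels name no Cre driver and do not say how the KO allele was made or whether each replicate was a separate mouse. The spread behind each p-value may therefore be technical, apart from that between KO replicate 1 and the other KO libraries, whose sex-linked counts differ (below). The design holds 1 comparison, KO against WT.

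Cells remove reactive oxygen in steps. Superoxide dismutases turn superoxide into hydrogen peroxide, Sod1 in the cytosol and Sod2 in mitochondria, and catalase (Cat), glutathione peroxidases and peroxiredoxins break the peroxide down. Metallothioneins (Mt1, Mt2) bind zinc and copper through many cysteines, Nqo1 reduces quinones, and Hmox1 opens the heme ring. Txnip is an arrestin-like protein that binds thioredoxin, and its transcription in beta cells follows glucose. Beta cells are known for low catalase and glutathione peroxidase activity, and for a high zinc content in their insulin granules.

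Total gene counts were 25733194 to 27285009 per library. As a check of the labels, Paupar had 111 to 252 counts per WT library and at most 4 per KO library. Xist had at most 6 counts in the WT libraries and 0 in KO replicate 1, but 1120 and 862 in KO replicates 2 and 3, and the Y-linked Ddx3y had 1316 to 1830 counts in the former 4 libraries and 2 and 0 in the latter. By these counts KO replicates 2 and 3 read as female and the other 4 libraries as male, so sex and genotype are partly confounded. In the fits of 6 libraries a difference of sex cannot be fully told apart from one of genotype. Values for KO replicate 1 alone against WT are therefore given beside the members. That fit holds 1 KO library, so its SE holds no spread among KO libraries. Summed levels of the 9 beta cell markers, insulin genes included, were 216000 to 235000 CPM (counts scaled to a common library total) in WT and 279000 to 287000 in KO, and those of the 8 endothelial markers were 278 to 336 and 374 to 405 CPM, so both lists were higher in every KO library, with 0 of their genes called. The 6 alpha cell markers, glucagon included, summed to 35200 to 45500 CPM in WT and 31800 to 37000 in KO. None of the beta, alpha, acinar, endothelial or macrophage markers found in the table was at 0 in all libraries, and the acinar sum ran from 23900 to 76200 CPM in WT and from 17700 to 47400 CPM in KO. The part of these differences in cell makeup in the results that follow was not tested. In such tissue RNA, fewer cells of a type and less RNA per cell cannot be told apart.

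Per kilobase of exonic length, the WT levels of the 10 genes ran over 2 orders of magnitude. Gpx3, the secreted glutathione peroxidase, stood highest at 360 ± 15.9 CPM per kb (SD, n = 3). Mt1 followed at 215 ± 45.7 and Sod1 at 178 ± 18.3, and the WT libraries of these neighbours overlapped. Txnip (73.2 ± 31.0) and Gpx1, the cytosolic glutathione peroxidase (69.2 ± 1.77), overlapped too. So did Sod2 (17.6 ± 1.82) and Mt2 (14.2 ± 4.07). Cat stood at 6.45 ± 1.98, Nqo1 at 3.55 ± 0.271 and Hmox1 at 2.47 ± 0.572 CPM per kb, without overlap between these neighbours in WT. In KO the ranges of Cat (4.52 to 6.96) and Nqo1 (4.85 to 6.79) did overlap. Gpx3 in KO ran from 269 to 347 and its lowest library met the highest of Mt1 (270). Exons of all annotated transcripts were merged for these lengths, so a gene with a seldom used long end reads too low.

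**Figure D1:**
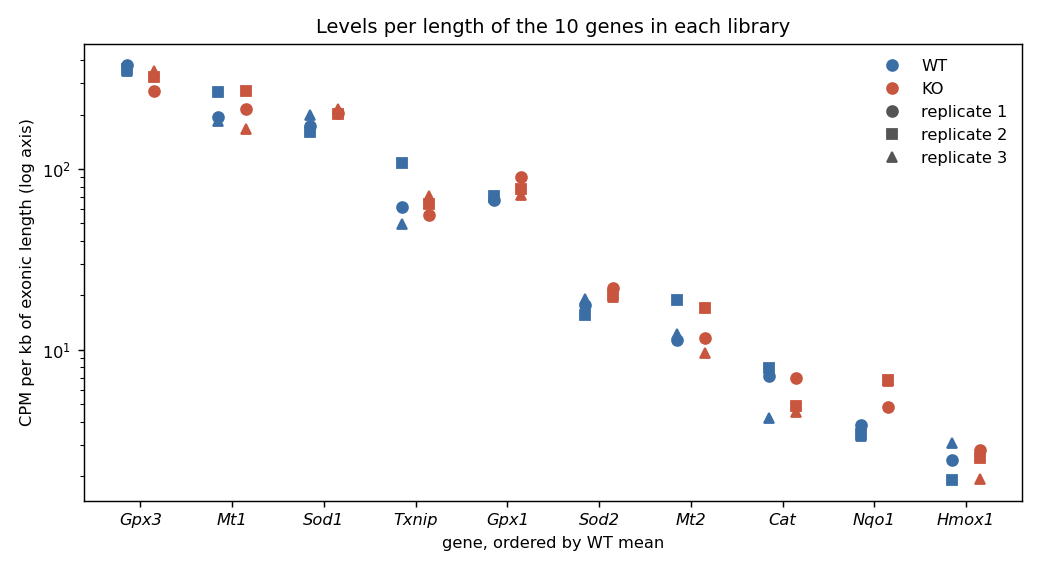
Level of each gene in each library, in CPM per kb of merged exonic length on a log axis, with genes ordered by their WT mean, blue for WT, red for KO and a symbol for each replicate number. Gpx3, Mt1 and Sod1 lie at 161 CPM per kb or more in all 6 libraries, and Cat, Nqo1 and Hmox1 at 7.97 or less.

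No member passed the test between genotypes in edgeR, where 27 of the 15915 tested genes did (0.17%), 27 of them lower and 0 higher in KO. At an unadjusted p below 0.05, 3 of the 10 members were higher in KO (Nqo1, Sod1 and Sod2) and 0 lower, against 6.99% higher and 9.38% lower of all tested genes. In 4 of the 10 (these and Gpx1) every KO library lay above every WT library, and in 0 every KO library lay below, against 11.3% and 12.1% of all tested genes. The median log2 fold change of the members was -0.01, beside 0.0023 for all tested genes. Genes of short exonic length tended to read higher in KO (trend given with the thioredoxin list). The median member had 1683 bp of merged exons, and the median tested gene with annotation 3523.5 bp. Sod1 (646 bp), Gpx1 (847 bp) and Nqo1 (1553 bp) were shorter than that gene, and Sod2 (3824 bp) was longer. With offsets for exonic length and GC content the log2 fold change was 0.17 in Sod1 (0.22 without offsets) and 0.17 in Sod2 (0.23). It was 0.18 in Gpx1 (0.21) and 0.69 in Nqo1 (0.79). The part of that trend in these 4 genes was not tested. DESeq2 called 1 member, Nqo1, at a background of 6.06% of the genes to which it gave an adjusted p (1.96% higher in KO).

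**Figure D2:**
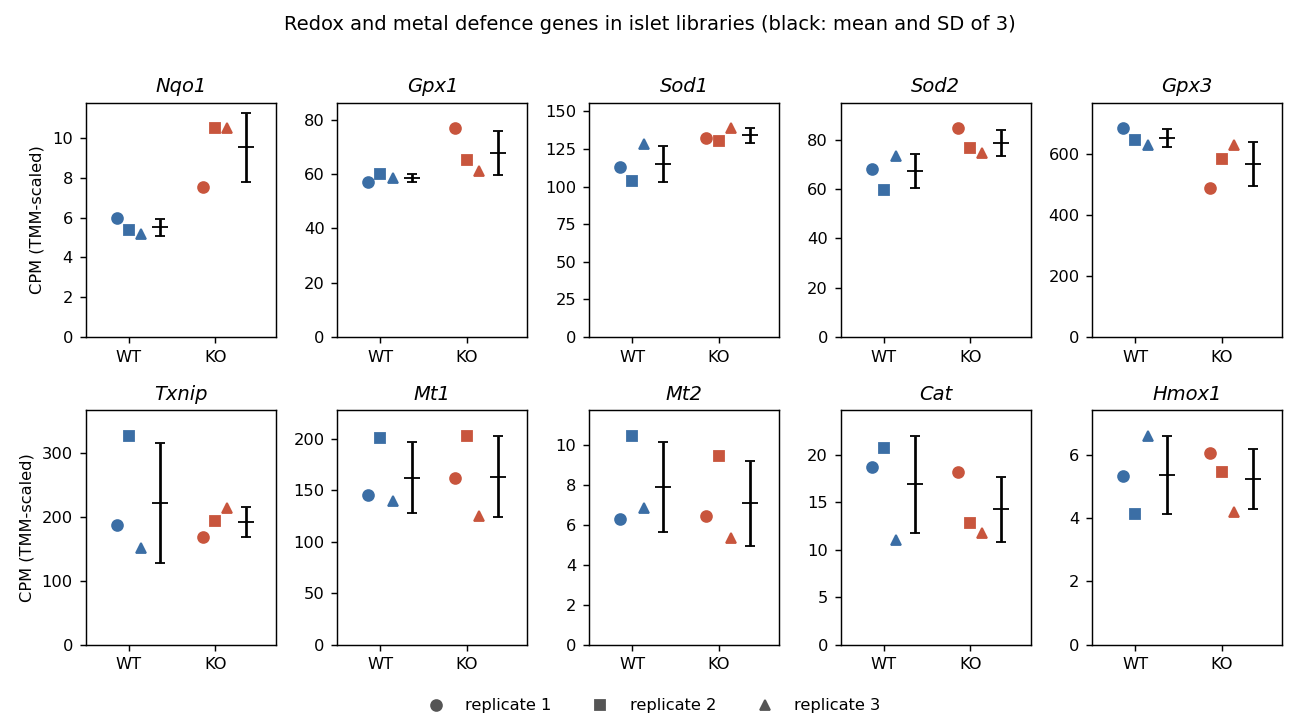
TMM-scaled CPM of the 10 genes in each library, with linear axes that start at 0, blue for WT, red for KO, a symbol for each replicate number, and the mean and SD of 3 libraries in black. The KO libraries lie above all WT libraries for Nqo1, Gpx1, Sod1 and Sod2, and the groups overlap in the other 6 genes.

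Nqo1, the quinone reductase that is a standard readout of the transcription factor NRF2, had the largest difference among the 10. It lies on chromosome 8 (109912125 to 109927106, minus strand, mm9). Its levels were 5.99, 5.35 and 5.19 CPM in the WT libraries, in order of replicate number, and 7.54, 10.5 and 10.5 CPM in the KO libraries, from 140 to 278 counts. The WT libraries were close together, the KO libraries were all above them, and KO replicate 1 stood between WT and the other KO libraries. The mean was 5.51 ± 0.421 CPM in the WT and 9.52 ± 1.72 in the KO libraries (SD, n = 3), a fold of 1.73 or a log2 fold change of 0.79 (SE 0.17), which did not pass in edgeR (adjusted p = 0.135). DESeq2 gave the same 0.79 (SE 0.22) with an adjusted p of 0.00907. Over the alternatives other than KO replicate 1 alone, the adjusted p ran from 0.00907 to 0.393. KO replicate 1 alone against WT, the contrast within libraries without Xist, gave 0.45 (SE 0.21). The edgeR fit without KO replicate 1 gave 0.93 (adjusted p = 0.134).

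No gene listed for the NRF2 pathway passed in edgeR either. Of 19 tested, 0 rose and 0 fell, 1 was higher and 0 lower at an unadjusted p below 0.05, and the median log2 fold change was 0.04. Nfe2l2, which encodes NRF2 itself, was at 47.8 ± 7.54 CPM in the WT and 49.8 ± 0.755 in the KO libraries (log2 fold change 0.06, SE 0.11). Keap1, the adaptor that marks NRF2 for degradation, was at -0.01 (SE 0.06), and Bach1, a repressor at the same DNA element, averaged 39.6 ± 6.73 CPM in WT libraries and 39.5 ± 3.0 in KO libraries. Sqstm1, an autophagy receptor that binds Keap1, was the 1 gene of this list that DESeq2 called, with 308 ± 3.21 CPM in the WT and 363 ± 5.33 in the KO libraries (0.24 in both tools, adjusted p = 0.000563 in DESeq2 and 0.176 in edgeR). It was singled out after its values were seen. The glutamate-cysteine ligase genes Gclc (0.04, SE 0.09) and Gclm (0.19, SE 0.10), which make the first step of glutathione synthesis, did not pass.

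Both intracellular superoxide dismutases had higher values in every KO library, and neither passed the test. Sod1 (chromosome 16, 90220987 to 90226567) stood at 113, 104 and 128 CPM in WT and 132, 130 and 139 CPM in KO replicates 1 to 3. The groups were separate, with WT replicate 3 close to the lowest KO library. Its log2 fold change was 0.22 (SE 0.09, unadjusted p = 0.0398, adjusted p = 0.283), and 0.20 with KO replicate 1 alone. Sod2 (chromosome 17, 13200705 to 13210985) stood at 68.1, 59.7 and 73.5 CPM in WT and 84.7, 76.6 and 74.7 in KO. Here too WT replicate 3 came near the KO libraries. Its log2 fold change was 0.23 (SE 0.10, unadjusted p = 0.0482, adjusted p = 0.30), and 0.34 with KO replicate 1 alone. Sod3, the extracellular enzyme, was at 2.47 ± 0.808 CPM in the WT and 3.09 ± 1.16 in the KO libraries, with overlapping libraries (0.33, SE 0.37). Ccs, the copper chaperone that loads Sod1, was at 0.14 (SE 0.12); it was named for its tie to Sod1.

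The 2 glutathione peroxidases differed in sign, and neither passed. Gpx1 (chromosome 9, 108241607 to 108242671) was at 57.2, 60.2 and 58.4 CPM in WT and 77.0, 65.3 and 61.1 CPM in KO. KO replicate 1 was the highest and KO replicate 3 lay just above WT. The log2 fold change of 0.21 (SE 0.10, edgeR adjusted p = 0.335) was thus 0.39 (SE 0.10) with KO replicate 1 alone and 0.11 without that library. Gpx3 (chromosome 11, 54715955 to 54723879) was at 684, 646 and 628 CPM in WT and 487, 582 and 629 in KO. KO replicate 1 was the lowest and KO replicate 3 reached the lowest WT library. The log2 fold change was -0.21 (SE 0.11, edgeR adjusted p = 0.421), and -0.42 (SE 0.13) with KO replicate 1 alone. In both genes KO replicate 1 was thus the library farthest from WT.

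No gene of glutathione supply and recycling was called. Of 23 tested genes of the glutathione and NADPH list, 0 passed in edgeR or DESeq2, 2 were higher and 0 lower at an unadjusted p below 0.05, 16 were positive and the median was 0.11. Gsr, which reduces oxidised glutathione, was at 38.8 ± 6.43 CPM in the WT and 46.4 ± 8.83 in the KO libraries (0.26, SE 0.17). Selenium supply bears on Gpx1 and Gpx3, whose catalytic residue is selenocysteine. In the selenium list 0 of 17 were called in edgeR, 5 were higher and 2 lower at an unadjusted p below 0.05, with a median of 0.13. Selenop, the plasma selenium carrier, was at 643 ± 152 CPM in the WT and 858 ± 107 in the KO libraries (0.42, SE 0.18, adjusted p = 0.321), Selenow was at 0.25 (SE 0.07) and Selenok, an endoplasmic reticulum selenoprotein, at 0.22 (SE 0.07). DESeq2 called Selenot higher (0.41, adjusted p = 0.00695) and Selenon lower (-0.33, adjusted p = 0.0214) in that list, 2 genes named after their values were seen, at 0.165 and 0.141 in edgeR.

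Cat (chromosome 2, 103294006 to 103325317, minus strand) split the libraries in a way that crossed genotype. It was at 18.7, 20.8 and 11.0 CPM in WT and 18.2, 12.8 and 11.8 in KO replicates 1 to 3. WT replicates 1 and 2 and KO replicate 1 were high, and the other 3 libraries were low. The same 3 libraries held the highest sums of acinar markers (76200, 41900 and 47400 CPM, against 23900, 33600 and 17700 CPM in the others). Within them the order differed: Cat was highest in WT replicate 2 and the acinar sum in WT replicate 1. The part of acinar content in the Cat values was not tested. The log2 fold change of Cat was -0.24 (SE 0.27, edgeR adjusted p = 0.697), and 0.02 (SE 0.21, edgeR adjusted p = 0.986) with the acinar sum as a covariate. With KO replicate 1 alone it was 0.11 (SE 0.38).

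**Figure D3:**
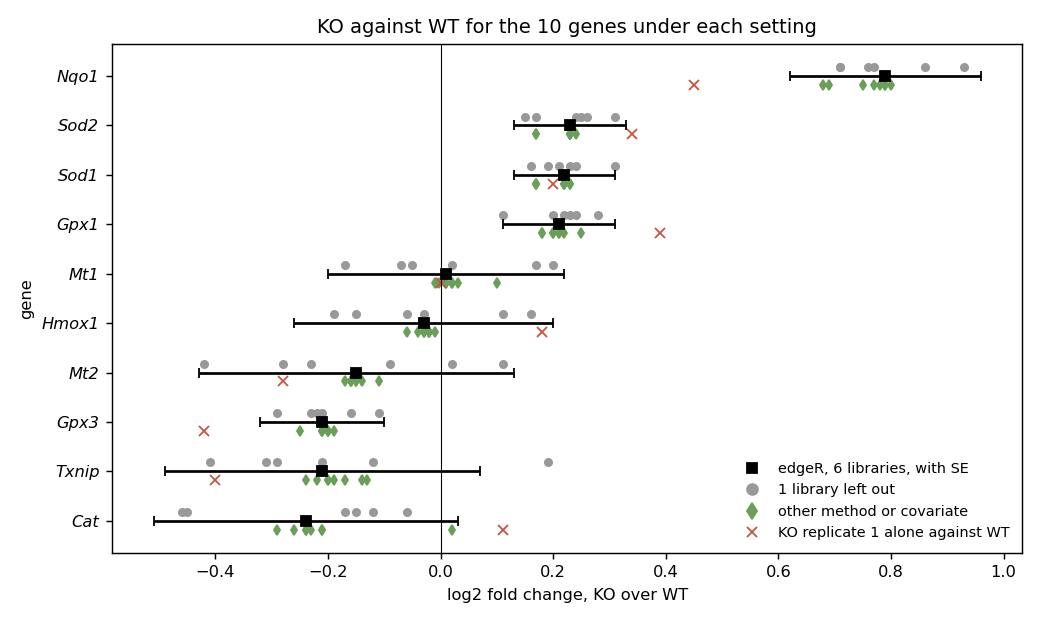
Log2 fold change of KO over WT for each gene: black squares with SE for edgeR on 6 libraries, grey points with 1 library left out, green diamonds for another method or covariate, red crosses for KO replicate 1 alone against WT. Nqo1, Sod1, Sod2 and Gpx1 stay above 0 and Gpx3 below 0 throughout, and the other 5 genes have values on both sides.

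Txnip (chromosome 3, 96361880 to 96365806) varied between libraries more than it differed between genotypes. It was at 187, 328 and 151 CPM in WT and at 168, 194 and 215 CPM in KO. WT replicate 2 stood apart and the other 5 libraries were interleaved. The log2 fold change was -0.21 (SE 0.28, edgeR adjusted p = 0.753), without WT replicate 2 it was 0.19 (adjusted p = 0.636), and with KO replicate 1 alone it was -0.40 (SE 0.47). The SD of log2 CPM within groups was 0.43, larger than in 81.7% of tested genes, whose median was 0.18. Cat (0.42), Mt2 (0.40), Mt1 (0.32), Hmox1 (0.30) and Nqo1 (0.21) were also above that median, and Sod1 (0.11), Gpx1 (0.12), Sod2 (0.13) and Gpx3 (0.14) below it.

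The next list holds the arrestin relatives and the factors that carry glucose signals to Txnip, and also Klf10 and Pklr. Of its 11 tested genes 0 were called in edgeR, and 1 was higher and 2 were lower at an unadjusted p below 0.05. In it 7 were negative and the median log2 fold change was -0.16. That median rested on the setting and on single libraries: it was -0.021 with length and GC offsets, -0.038 without KO replicate 3, -0.075 without KO replicate 2, -0.05 without WT replicate 2 and -0.055 without WT replicate 3. Mlxipl (ChREBP), the glucose-responsive factor that binds the Txnip promoter, was at 74.0 ± 8.53 CPM in the WT and 66.2 ± 11.2 in the KO libraries (-0.16, SE 0.14). Its relative Mlxip (MondoA) was at 77.4 ± 3.11 CPM in the WT and 61.9 ± 3.83 in the KO libraries, a log2 fold change of -0.32 (SE 0.07) with an adjusted p of 0.141 in edgeR and 0.0116 in DESeq2, the 1 gene of the list called there. Mlx, the shared partner of both, was at 0.14 (SE 0.09). Arrdc4, a sister gene of Txnip that answers to the same factors, was at 17.7, 24.3 and 17.4 CPM in WT and 18.1, 20.8 and 21.6 in KO. Like Txnip it was highest in WT replicate 2 and lowest in WT replicate 3, over a narrower range. It was singled out for its kinship to Txnip.

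Of 8954 genes with a mean of at least 10 CPM, the 5 whose centred log2 profile over the 6 libraries lay closest to that of Txnip were Rps6ka2, a ribosomal S6 kinase, Frmd4b, Irf2bp2, a transcriptional corepressor, Slc35f1 and Fmnl3, a formin. Their mean absolute log2 differences from it were 0.0961, 0.107, 0.117, 0.127 and 0.131. Rps6ka2, at 106, 154 and 85.0 CPM in WT and 82.5, 109 and 114 in KO, shared the peak in WT replicate 2. Arrdc4 was 40th by this measure (0.162). With 6 libraries and so many genes, close profiles are a description only.

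The metallothioneins varied together from library to library, and neither passed between genotypes. Their start regions are shown because the 2 genes, 5522 bp apart on chromosome 8 (Mt2 at 96696518 to 96697467 and Mt1 at 96702989 to 96704225 in mm9), followed one profile. Each run gives the 250 bases before the RefSeq start and the first 30 bases after it, on the plus strand of GRCm38.p6 (Mt1 at chr8:94178839-94179118, Mt2 at chr8:94172368-94172647). Capitals mark the core of the metal response element, TGCACNC or TGCGCNC on either strand, which the zinc sensor Mtf1 is known to bind, and in Mt2 the core of the antioxidant response element, TGACNNNGC.
Mt1: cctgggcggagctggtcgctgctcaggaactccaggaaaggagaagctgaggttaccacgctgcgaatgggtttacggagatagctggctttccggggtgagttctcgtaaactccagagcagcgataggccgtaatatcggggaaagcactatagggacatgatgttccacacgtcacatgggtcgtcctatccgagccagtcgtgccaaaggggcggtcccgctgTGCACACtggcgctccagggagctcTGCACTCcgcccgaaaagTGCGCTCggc
Mt2: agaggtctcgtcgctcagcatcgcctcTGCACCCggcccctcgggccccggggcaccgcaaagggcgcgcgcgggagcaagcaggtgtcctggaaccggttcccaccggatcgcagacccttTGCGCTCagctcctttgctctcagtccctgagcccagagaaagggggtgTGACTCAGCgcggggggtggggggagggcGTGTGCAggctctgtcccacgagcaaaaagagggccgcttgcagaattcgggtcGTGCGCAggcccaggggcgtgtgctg
Mt1 held 3 metal element cores in the window of 300 bases and Mt2 held 4. Those of Mt1 began 23 bases before the RefSeq start and, after it, at bases 3 and 21. Those of Mt2 began 223, 128 and 50 bases before the start and, after it, at base 5. At least 1 such core was found in 25.7% of all 32851 RefSeq windows of that length, and 3 or more in 1.97%. The antioxidant core in Mt2, TGACTCAGC, lies 79 bases before the start, also contains the letters of an AP-1 site (TGACTCA), and such a core was found in 12.4% of windows. Of the 9 members with a window in the table, the metal core was also found in Txnip and the antioxidant core also in Sod1. Cores outside the window of 300 bases were not searched, in Nqo1 or elsewhere. An E-box of the letters CACGTG, present in 7.15% of windows, was found in none of the 9. Only these exact letters were searched, so the result does not say whether a variant E-box is present, in Txnip or elsewhere. These matches describe letters, not bound sites.

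Mt1 was at 145, 201 and 139 CPM in WT and at 162, 203 and 125 CPM in KO. Mt2 was at 6.32, 10.5 and 6.86 CPM in WT and at 6.47, 9.47 and 5.36 in KO. In both genes replicate 2 was the highest library of each genotype and KO replicate 3 the lowest of all. The log2 fold changes were 0.01 (SE 0.21, edgeR adjusted p = 0.983) for Mt1 and -0.15 (SE 0.28, edgeR adjusted p = 0.824) for Mt2. With KO replicate 1 alone they were 0.0 (SE 0.24) and -0.28 (SE 0.36). Counts of Mt1 were 19.2 to 25.0 times those of Mt2 in the 6 libraries, a narrow span beside the 1.62-fold range of Mt1 and the 1.96-fold range of Mt2. The genes are related in sequence, so reads that match both may have been lost or shared. The mean absolute log2 difference between their centred profiles was 0.111, and 7 of 8954 genes of at least 10 CPM lay closer to Mt1. The 5 closest were Hspg2, which encodes the basement membrane proteoglycan perlecan, the membrane metalloproteinase Mmp15, the purine phosphorylase Pnp, the small GTPase Rhog and Tmem260, at 0.0666 to 0.103.

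**Figure D4:**
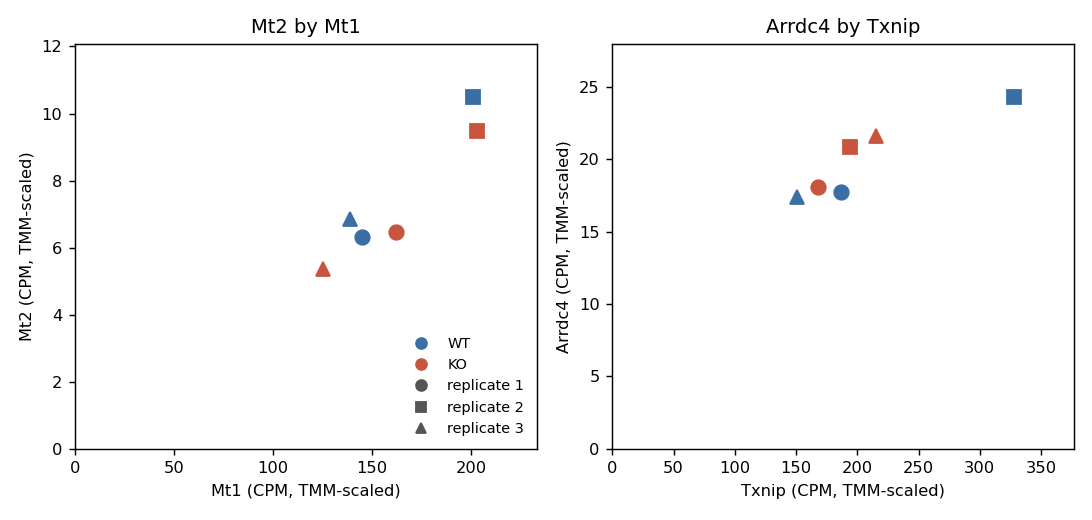
Mt2 against Mt1 (left) and Arrdc4 against Txnip (right) in TMM-scaled CPM, 1 point for each of the 6 libraries, blue for WT and red for KO, with a symbol for each replicate number and axes from 0. The 2 libraries highest in Mt1 (201 and 203 CPM) are the 2 highest in Mt2, and the WT library highest in Txnip (328 CPM) is the highest in Arrdc4.

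Other genes of metal handling did not pass either (0 of 19 in edgeR and in DESeq2, 4 higher and 1 lower at an unadjusted p below 0.05, 14 positive, median 0.10). Mtf1, the zinc-sensing factor of metallothionein genes, was at 41.2 ± 1.46 CPM in the WT and 39.0 ± 3.88 in the KO libraries (-0.08, SE 0.09). Slc30a8, the zinc transporter of insulin granules and a beta cell marker here, was at 937 ± 47.6 CPM in the WT and 1090 ± 125 in the KO libraries (0.22, SE 0.11, adjusted p = 0.397). Slc30a1, a zinc exporter of the cell surface that Mtf1 is known to induce, was at 0.01 (SE 0.14).

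Hmox1 (chromosome 8, 77617490 to 77624495), the inducible heme oxygenase, was low and overlapping in the 2 genotypes. It was at 5.31, 4.13 and 6.60 CPM in WT and 6.05, 5.46 and 4.19 CPM in KO (111 to 178 counts), a log2 fold change of -0.03 (SE 0.23, edgeR adjusted p = 0.964). With KO replicate 1 alone it was 0.18 (SE 0.33). The highest and the lowest library were both WT, and Hmox1 has no adjusted p in DESeq2. Macrophages are a known site of Hmox1, and the sum of 9 macrophage markers ran from 105 to 182 CPM in WT and from 125 to 236 CPM in KO, also overlapping. Among 13 heme and iron genes 0 were called in edgeR, 4 were higher and 0 lower at an unadjusted p below 0.05, 10 were positive and the median was 0.13. The constitutive heme oxygenase gene Hmox2 was at 0.13 (SE 0.08), and the biliverdin reductase genes Blvra and Blvrb were at 0.05 (SE 0.19) and 0.06 (SE 0.19). The ferritin heavy chain gene Fth1, named after its values were seen, was the 1 gene of the list called by DESeq2 (0.29, adjusted p = 0.0278, and 0.206 in edgeR).

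The thioredoxin system, on which Txnip acts, had the highest median of the 8 pathway lists in the fit of 6 libraries, a rank that did not hold throughout. Without WT replicate 2 the list of reactive oxygen sources, which also holds Sod3, was at 0.20 and the thioredoxin list at 0.18. With the offsets for exonic length and GC content the heme and iron list was at the same 0.12 as the thioredoxin list. Without KO replicate 1 these lists were both at 0.17. Of the 21 tested genes of the thioredoxin list, which also holds glutaredoxin genes, 18 were on the positive side. The median log2 fold change of the 21 was 0.18 beside 0.0023 for all tested genes, yet 0 passed in edgeR. In 10 of the 21 every KO library lay above every WT library, against 11.3% of all tested genes, and 9 were higher at an unadjusted p below 0.05, against 6.99%. Prdx1, a cytosolic peroxiredoxin, was at 145 ± 7.80 CPM in the WT and 186 ± 5.66 in the KO libraries (0.36, SE 0.07, with an adjusted p of 0.109 in edgeR and 0.000456 in DESeq2). Txn1, thioredoxin itself, was at 48.4 ± 0.174 and 54.9 ± 1.77 CPM (0.18, SE 0.06, adjusted p = 0.227), and Txnrd1, its reductase, at 0.03 (SE 0.08). Prdx6, named after its values were seen, was the other gene that DESeq2 called (0.37, adjusted p = 0.0425, and 0.194 in edgeR). The median of the list was 0.21 in KO replicate 1 alone against WT and 0.17 without that library. With the offsets it was 0.12, with 18 positive. Those offsets address a trend over all genes: the Spearman correlation of a library's deviation from the gene mean with exonic length was 0.10 to 0.14 in WT and -0.24 to -0.038 in KO, across 14794 genes, which are not independent replicates. Its median exonic length was 2558 bp, and that of all tested genes with annotation 3523.5 bp.

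The list of genes for making reactive oxygen, which also holds Sod3, gave no call (0 of 11 in edgeR and in DESeq2, and 0 at an unadjusted p below 0.05). The NADPH oxidase subunit genes Cyba and Cybb were at -0.10 (SE 0.37) and -0.06 (SE 0.30), and the median of their list was 0.12. In all, 126 different genes of the 8 lists were tested besides the members. EdgeR called 0 of them. DESeq2 called 7, and some of the 126 had no adjusted p there. That share was close to the 6.06% that it called of all genes to which it gave an adjusted p. An unadjusted p below 0.05 in edgeR was found for 30 (23.8%), against 16.4% of all tested genes.

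**Figure D5:**
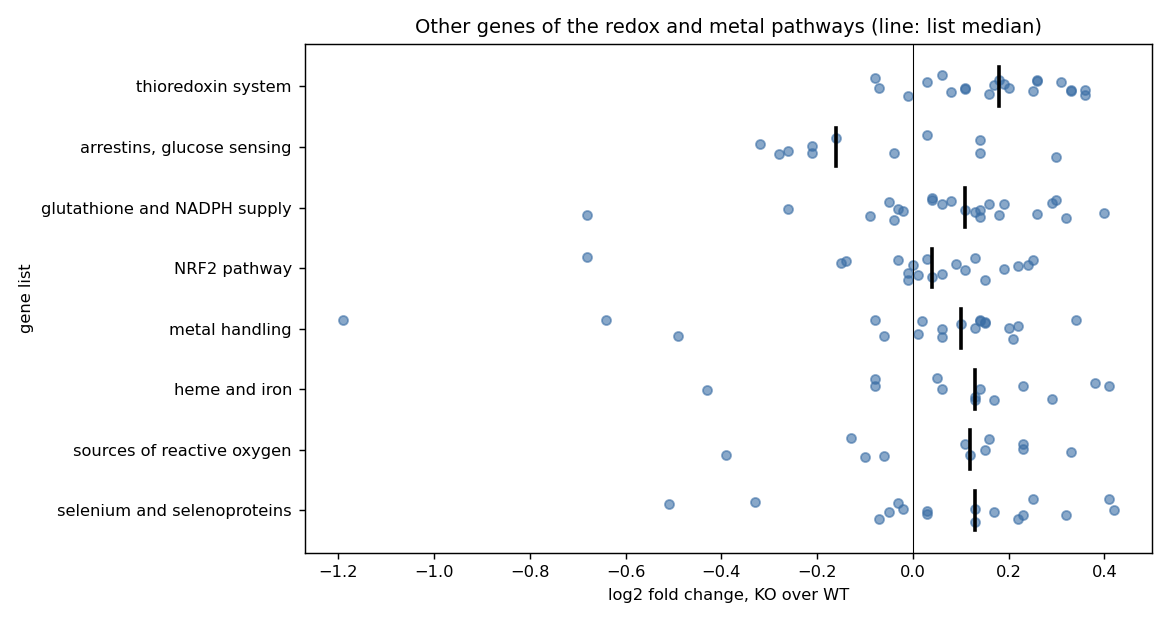
Log2 fold change of KO over WT for each tested gene of the 8 pathway lists, 1 point per gene with a vertical scatter that carries no value, and a black line at each list's median. With all 6 libraries the thioredoxin system has the highest median (0.18, and 0.12 with length and GC offsets) and the arrestin and glucose-sensing list the lowest (-0.16, and -0.021 with offsets).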

How the data were processed

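Islet RNA libraries, 3 WT and 3 KO, were grouped by the titles in the labels. The authors deposited raw read counts per gene, not normalized, in 1 table whose 6 columns were matched to samples by name. Per the submitters' processing notes, HISAT2 2.1.0, HTSeq, CASAVA 1.8.2 and DESeq2 were used with the build mm9. Which annotation, counting options and strand setting were used is not given in the sources used here, so reads of a gene and of an antisense partner may not be separable. A set of 24 names in it had been turned into dates.

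From these counts, genes were filtered by filterByExpr, scaled by TMM and tested with the quasi-likelihood F-test of edgeR 4.0.16 (R 4.3.3), with Benjamini-Hochberg adjustment over 15915 genes and a threshold of 0.05. The SE is the log2 fold change divided by the square root of F. Levels are CPM scaled by TMM. Symbols matched GENCODE vM1 exons (mm9) for 14794 tested genes (93.0%). Promoters are RefSeq windows of GRCm38.p6, found for 9 of 10 members.

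The members and the 8 pathway lists were chosen with earlier results of these data known. The text names all members and the first 3 tested genes of each list, and says where a gene was picked otherwise. Profiles close to Txnip and Mt1 were ranked among genes of at least 10 CPM. Alternatives were DESeq2 1.42.0 and its size factors, limma-voom (limma 3.58.1), no filter, a replicate block, length and GC offsets, an acinar covariate, a threshold of 0.1, KO replicate 1 alone, and leaving out each library. Settings for the list medians were added after seeing the data. The fit was tested on simulated data.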

Additional observations from a re-analysis of the deposited data

How the results depend on the processing

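Of 150 member values under alternatives, 137 kept their sign and 1 passed the threshold, Nqo1 in DESeq2 (0.79, adjusted p = 0.00907), so that 1 member was called there and 0 under the other settings. Nqo1, Sod1, Sod2, Gpx1 and Gpx3 kept their sign under every alternative run. The sign of the others, none of them called, turned as follows. Txnip was at 0.19 without WT replicate 2. Mt1 was at -0.17 without KO replicate 2, -0.05 without WT replicate 1, -0.07 without WT replicate 3, -0.0031 with length and GC offsets and -0.01 with these and the replicate block. Mt2 was at 0.02 without KO replicate 3 and 0.11 without WT replicate 2. Cat was at 0.11 for KO replicate 1 alone and 0.02 with the acinar covariate. Hmox1 was at 0.18 for KO replicate 1 alone, 0.11 without KO replicate 3 and 0.16 without WT replicate 3. Leaving out 1 library at a time, the log2 fold change ran from -0.41 to 0.19 in Txnip, -0.17 to 0.20 in Mt1, -0.42 to 0.11 in Mt2 and -0.19 to 0.16 in Hmox1. Over all settings, list medians ran from 0.12 to 0.21 (thioredoxin), -0.17 to -0.021 (arrestin), 0.066 to 0.13 (glutathione), -0.013 to 0.12 (NRF2; both ends from leaving out 1 library, the lower WT replicate 2), 0.039 to 0.12 (metal), 0.033 to 0.18 (heme), 0.082 to 0.20 (oxygen sources) and 0.064 to 0.17 (selenium). The count of genes called in all, 27, was 646 in DESeq2, 132 at an adjusted p below 0.1, 1 for KO replicate 1 alone, and 0 in limma-voom, with the acinar covariate or with length and GC offsets, and it ran from 0 to 89 when 1 library was left out. It was 0 without KO replicate 3, KO replicate 2, WT replicate 2 or WT replicate 1, 5 without KO replicate 1 and 89 without WT replicate 3. The cause was not tested. With the replicate block it was 0, also with the offsets. Deviations of same-numbered libraries from their group means correlated at 0.18, 0.058 and 0.032, not every library matched its own number best, and the numbers were taken as names only. At 111 to 282 counts a library, Mt2, Nqo1 and Hmox1 rest on the fewest reads.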
